A study of Mus musculus with 10 samples.

Results

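Vascular genes were followed through RNA-seq of whole C57BL/6 mouse skin. Per the series title the skin came from the MC903 model, in which a vitamin D analogue inflames skin. The group CKO holds 5 samples whose genotype is given as basophils VAMP7 CKO, and the group Flox holds 5 control samples given as basophils VAMP7 Flox, with the treatment label WT. VAMP7 is a SNARE protein of the vesicle fusion machinery. Both groups come from the model, so no untreated skin is compared. The sources used here give neither the Cre driver and the cells it acts in, nor the age of the mice, nor the time of sampling. The design text speaks of 6 samples where the labels give 10. The samples are not stated to be separate animals, so each p-value measures the spread among samples only, and that spread may be technical.

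The genes described are 34 symbols chosen by name, of 19175 in the table, that cover blood and lymphatic endothelial identity, angiogenic factors and the adhesion molecules that capture leukocytes. All 34 were found. Blood vessels are lined by endothelial cells, which hold together through VE-cadherin junctions, respond to VEGF and angiopoietins through receptor tyrosine kinases, and in inflamed skin display selectins and immunoglobulin-type adhesion molecules on which leukocytes roll and arrest. Lymphatic endothelium drains the tissue and depends on the factor PROX1 and on VEGF-C acting through VEGFR-3.

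Values are FPKM, fragments scaled to transcript length and library size, so levels of different genes can be set side by side. A log2 fold change is the CKO mean minus the Flox mean of log2(FPKM + 1), a scale that shrinks the differences of low genes. Its standard error (SE) and adjusted p come from limma, with adjustment over the 13186 genes that reached 1 FPKM in 5 or more libraries. Errors of FPKM are SD with n = 5. The threshold is an adjusted p of 0.05.

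The number of reads per library is unknown, and the FPKM of a library summed to 525369 to 581022. The targeted gene, Vamp7, was at 17.3, 19.2, 18.4, 18.8 and 17.7 FPKM in CKO and at 18.5, 22.5, 18.1, 19.2 and 19.4 FPKM in Flox, and the groups overlapped. Vamp7 is broadly expressed, and skin holds many cell types besides basophils. The 8 basophil markers summed to 72.9 to 123 FPKM in CKO and 247 to 302 FPKM in Flox. Of these markers 3 fell (Cd200r3, Gata2 and Hrh4), against 0.0607% of all genes tested. At an unadjusted p under 0.05 in limma all 8 were lower in CKO, against 10.3% of all genes tested. For 7 of the 8 the groups did not overlap, against 4.23%. The number that fell was 0 without CKO replicate 2, CKO replicate 4 or any 1 Flox library, with no filter or with the replicate block. It was 1 without CKO replicate 5, 2 with a pseudocount of 0.1, and 5 without CKO replicate 1, with quantile normalization or with array quality weights. All 8 log2 fold changes were negative in each of these fits. CKO replicate 1 stood apart. Its array quality weight was 0.272 against 0.561 to 2.12 in the others, its skeletal muscle markers summed to 1239 FPKM against 316 to 751 FPKM in the other CKO libraries and 202 to 356 FPKM in Flox, and Ptprc, the pan-leukocyte CD45, was at 25.95 FPKM against 52.7 to 77.8 FPKM in the other CKO libraries. Its 10 leukocyte markers summed to 3524 FPKM, against 3675 to 8153 FPKM in the other CKO libraries and 2879 to 4809 FPKM in Flox. Keratinocyte markers were high in every library, at a sum of 6257 to 8122 FPKM in CKO and 6003 to 8420 FPKM in Flox, and the endothelial markers Pecam1 and Cdh5 were well above 1 FPKM in each.

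Promoter windows of 5 genes are shown because of how these genes are known to be controlled. NF-kappaB drives the inducible adhesion genes, and ETS factors such as ERG drive endothelial receptors. Each window runs from 250 bases before to 50 bases after the annotated start, 5′ to 3′ on the strand of the gene, from RefSeq on build GRCm38.p6, and 20 of the 34 genes had a window there. Capitals mark matches to GGNNNTTCC in Sele, Selp and Icam1 and to AGGAAG in Tie1 and Flt1, each searched on both strands. The other motif is not marked.
Sele (chr1:164047984-164048283, plus strand): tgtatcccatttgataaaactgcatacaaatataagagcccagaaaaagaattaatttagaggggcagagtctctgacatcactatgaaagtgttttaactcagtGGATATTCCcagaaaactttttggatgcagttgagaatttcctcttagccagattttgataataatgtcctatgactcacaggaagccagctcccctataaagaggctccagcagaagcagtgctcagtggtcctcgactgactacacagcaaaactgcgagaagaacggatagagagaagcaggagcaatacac
Selp (chr1:164115014-164115313, plus strand): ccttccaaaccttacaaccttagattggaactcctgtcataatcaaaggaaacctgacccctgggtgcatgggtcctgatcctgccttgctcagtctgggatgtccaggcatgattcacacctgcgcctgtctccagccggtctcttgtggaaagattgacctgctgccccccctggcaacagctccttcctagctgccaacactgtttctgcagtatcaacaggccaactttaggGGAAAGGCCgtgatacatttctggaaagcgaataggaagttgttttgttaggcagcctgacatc
Icam1 (chr9:21015690-21015989, plus strand): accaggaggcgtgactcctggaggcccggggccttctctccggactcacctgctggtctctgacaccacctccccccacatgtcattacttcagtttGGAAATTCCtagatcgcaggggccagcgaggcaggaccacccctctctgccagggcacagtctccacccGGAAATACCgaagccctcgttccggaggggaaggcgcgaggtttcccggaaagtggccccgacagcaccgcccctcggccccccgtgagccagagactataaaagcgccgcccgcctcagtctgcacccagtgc
Tie1 (chr4:118489800-118490099, minus strand): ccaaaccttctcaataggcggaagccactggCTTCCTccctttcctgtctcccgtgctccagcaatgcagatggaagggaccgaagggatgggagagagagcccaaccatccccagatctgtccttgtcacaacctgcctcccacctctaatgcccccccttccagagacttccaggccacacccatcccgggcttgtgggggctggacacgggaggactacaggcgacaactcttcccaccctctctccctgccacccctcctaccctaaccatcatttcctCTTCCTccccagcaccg
Flt1 (chr5:147725962-147726261, minus strand): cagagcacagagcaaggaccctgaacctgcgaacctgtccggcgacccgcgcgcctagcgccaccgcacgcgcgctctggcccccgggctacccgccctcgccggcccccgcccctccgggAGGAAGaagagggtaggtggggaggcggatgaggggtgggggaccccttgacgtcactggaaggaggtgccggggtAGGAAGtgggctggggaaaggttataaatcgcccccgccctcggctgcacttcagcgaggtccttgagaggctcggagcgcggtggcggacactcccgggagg

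The Sele window held 1 match, which began 145 bases before the start. The Icam1 window held 2, at 153 and 84 bases before the start, and the first of these reads as a match on both strands. The Selp window held 1 match, 14 bases before the start on the opposite strand. In Tie1 the matches lay 219 bases before and 33 bases after the start, on the opposite strand, and in Flt1 at 129 and 53 bases before the start. Of all 32851 windows, 18.5% held GGNNNTTCC and 35.4% held AGGAAG. A match describes the letters of the window only.

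All 34 genes were expressed and tested, and 33 of them were at 1 FPKM or more in every library. The highest mean levels over the 10 libraries were those of Vcam1 (84.3 FPKM), the fenestral diaphragm protein gene Plvap (82.3 FPKM), Pdpn (68.04 FPKM) and Pecam1 (52.01 FPKM). The lowest were the transcription factors Sox17 at 1.58 and Prox1 at 1.03 FPKM. The libraries of Vcam1, Plvap and Pdpn overlapped, as did those of Icam1, Egfl7 and Eng, whose means were 29.4, 29.2 and 26.95 FPKM, so neither set has an order beyond the spread of its libraries. The lowest Pecam1 value, 45.1 FPKM, lay above the highest of these last 3 genes, 36.5 FPKM.

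**Figure D1:**
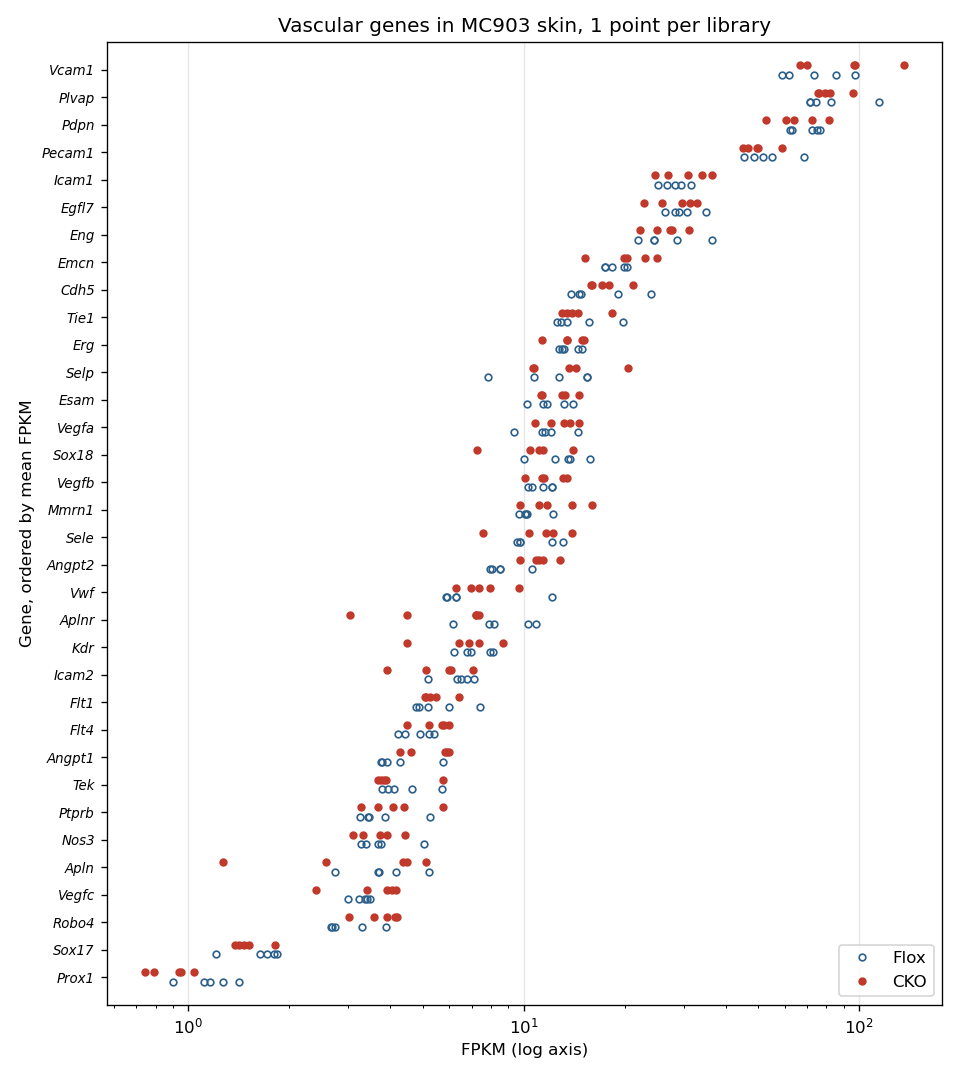
FPKM (log axis) of each of the 34 genes in 5 CKO libraries (filled red) and 5 Flox libraries (open blue), 1 point per library, genes ordered by mean level. The 2 groups overlap for every gene, and levels run from 0.740 FPKM (Prox1) to 136 FPKM (Vcam1).

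No single one of the 34 genes separated the 2 groups. None of the 34 genes rose, against 0.0455% of all genes tested, and none fell, against 0.0607% (0.106% in either direction). So few genes were called over the whole table that a count of 0 is near these shares. At an unadjusted p under 0.05 in limma 3 were higher in CKO, against 4.78% of all genes tested, and 2 were lower, against 10.3%. These 5 are 14.7% of the 34, near the 15.1% over all genes tested. The CKO and Flox libraries overlapped for all 34 genes, while 4.23% of all genes tested had groups that did not overlap (1.24% with CKO above Flox and 3.00% below). The sign was positive for 17 of the 34 genes, against 39.5% of all genes tested, and negative for 17, with a median log2 fold change of 0.010 against -0.027 over all genes tested. The 95% interval lay inside a log2 change of 0.5 in either direction for 27 of the 34 genes and inside a log2 change of 1 for 33, the exception being Aplnr. In bulk skin, fewer endothelial cells and less RNA per endothelial cell cannot be told apart.

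**Figure D2:**
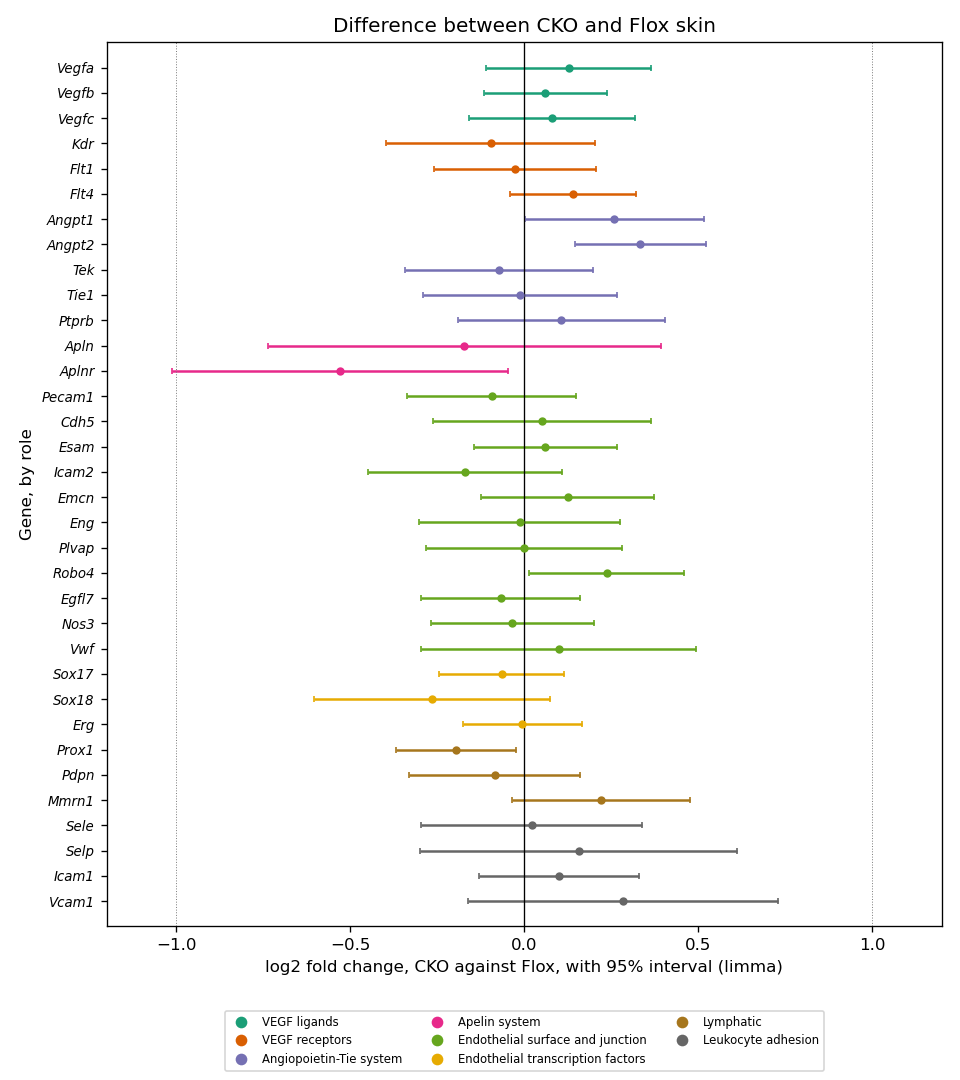
Log2 fold change of CKO against Flox for each of the 34 genes, with its 95% interval from limma, coloured by role; dotted lines mark a log2 change of 1. Most intervals span 0, and those of Angpt1, Angpt2 and Robo4 lie above it and those of Aplnr and Prox1 below it before adjustment over all genes.

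All 3 VEGF ligands had small positive log2 fold changes whose 95% intervals lay inside a log2 change of 0.5 in either direction, and none passed. Vegfa, the main angiogenic ligand and one that keratinocytes make, was at 13.2, 14.7, 13.8, 12.1 and 10.8 FPKM in CKO and at 9.33, 11.6, 12.1, 14.5 and 11.4 FPKM in Flox. CKO replicate 5 and Flox replicate 1 were the lowest of their groups, and the ranges overlapped (log2 fold change 0.13 (SE 0.11), adjusted p = 0.628). Vegfb ranged over 10.1 to 13.5 FPKM (CKO) and 10.3 to 12.2 FPKM (Flox) and Vegfc, the lymphatic ligand, over 2.4 to 4.17 FPKM (CKO) and 3 to 3.49 FPKM (Flox). For Vegfc the CKO range contained the Flox range, with CKO replicate 1 lowest. The log2 fold changes of these 2 ligands were 0.061 (SE 0.080) and 0.079 (SE 0.11).

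Of the VEGF receptors, Kdr (VEGFR-2), which carries most of the mitogenic signal, was at 4.48, 8.69, 7.38, 6.4 and 6.88 FPKM in CKO and at 6.79, 6.18, 6.95, 7.95 and 8.11 FPKM in Flox. CKO replicate 1 was the lowest of all 10 libraries, and the log2 fold change of -0.097 (SE 0.14) was 0.023 without it. Flt1 (VEGFR-1), which binds VEGF-A and acts largely as a trap, ranged over 5.09 to 6.42 FPKM (CKO) and 4.79 to 7.39 FPKM (Flox), with a log2 fold change of -0.026 (SE 0.11). Flt4 (VEGFR-3), the receptor of lymphatic endothelium, was at 4.5, 5.23, 5.99, 5.71 and 5.77 FPKM in CKO and at 4.43, 4.21, 5.41, 4.91 and 5.23 FPKM in Flox. In 3 CKO libraries Flt4 exceeded every Flox library (log2 fold change 0.14 (SE 0.082), adjusted p = 0.453).

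The angiopoietin ligands had the largest positive differences among the angiogenic factors, and neither passed. Angpt2, which activated endothelium releases from Weibel-Palade bodies and which antagonises TIE2 in many settings, was at 12.9, 11.1, 9.77, 10.9 and 11.4 FPKM in CKO replicates 1 to 5 and at 8.05, 7.92, 8.48, 10.6 and 8.52 FPKM in Flox replicates 1 to 5. In 4 of the 5 CKO libraries it exceeded every Flox library, and Flox replicate 4 was the one that overlapped. Its log2 fold change was 0.33 (SE 0.085) with a 95% interval of 0.15 to 0.52, and its adjusted p of 0.138 was the lowest of the 34 genes. Over the alternative settings that adjusted p ran from 0.0907 to 0.311. Angpt1, the stabilising ligand of TIE2, made mainly by cells around the vessel, was at 4.61, 5.9, 5.97, 4.29 and 5.84 FPKM in CKO and at 3.76, 3.92, 4.27, 5.75 and 3.78 FPKM in Flox. The values of 3 CKO libraries lay above the Flox range, whose highest value was again that of replicate 4 (log2 fold change 0.26 (SE 0.12), adjusted p = 0.329).

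The receptors of the angiopoietins overlapped between the groups. Tek (TIE2) was at 3.76, 3.84, 3.68, 3.88 and 5.74 FPKM in CKO and at 4.1, 3.93, 3.77, 4.66 and 5.71 FPKM in Flox. Replicate 5 was the highest of each group, and the log2 fold change was -0.072 (SE 0.12). The co-receptor Tie1 ranged over 12.99 to 18.3 FPKM (CKO) and 12.6 to 19.8 FPKM (Flox), a log2 fold change of -0.012 (SE 0.13). Ptprb, the phosphatase VE-PTP that restrains TIE2 and VE-cadherin signalling, ranged over 3.28 to 5.73 FPKM (CKO) and 3.26 to 5.25 FPKM (Flox), a log2 fold change of 0.11 (SE 0.13).

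Of the 34 genes the apelin receptor had the largest log2 fold change in size, and it did not pass. Aplnr, a G protein-coupled receptor of venous and sprouting endothelium, was at 3.04, 7.21, 7.19, 4.48 and 7.36 FPKM in CKO replicates 1 to 5 and at 7.89, 6.14, 8.14, 10.3 and 10.9 FPKM in Flox replicates 1 to 5. CKO replicates 1 and 4 were below every Flox library, while the other 3 CKO libraries fell inside the Flox range. The log2 fold change was -0.53 (SE 0.22), with a 95% interval of -1.01 to -0.045 and an adjusted p of 0.295. Leaving out CKO replicate 1 gave -0.35 (adjusted p = 0.389), and the adjusted p of all alternatives ran from 0.252 to 0.429. The ligand Apln, a tip cell gene, varied most between libraries of the 34 genes in relation to its mean, at 1.27, 2.57, 5.12, 4.49 and 4.36 FPKM in CKO and at 4.16, 2.74, 3.7, 3.69 and 5.23 FPKM in Flox. Its highest value was 4.12 times its lowest, which was that of CKO replicate 1, and the log2 fold change of -0.17 (SE 0.26) was 0.058 without that library, a change of sign.

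Genes of endothelial identity and junctions differed little between the groups. Of 11, none passed, 5 had a positive and 6 a negative log2 fold change, and the 95% interval of every one lay inside a log2 change of 0.5. Pecam1 (CD31), which platelets and leukocytes also carry, was at 49.9, 49.7, 46.8, 45.1 and 59.1 FPKM in CKO and at 51.6, 45.3, 48.6, 55.2 and 68.7 FPKM in Flox. Cdh5, the VE-cadherin of adherens junctions, was at 16.03, 18.02, 17.1, 15.9 and 21.2 FPKM in CKO and at 14.8, 13.8, 14.6, 19.2 and 23.95 FPKM in Flox. In both genes replicate 5 was the highest library of its group, and the log2 fold changes were -0.094 (SE 0.11) and 0.052 (SE 0.14).

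Plvap was at 79.5, 75.3, 75.8, 81.9 and 96.3 FPKM in CKO and at 71.4, 71.4, 74.6, 82.5 and 114 FPKM in Flox. Its means were 81.8 ± 8.57 FPKM in CKO and 82.9 ± 18.2 FPKM in Flox, and its log2 fold change of -0.00084 (SE 0.13) had a 95% interval of -0.28 to 0.28. The sialomucin Emcn, of veins and capillaries, ranged over 15.2 to 24.99 FPKM (CKO) and 17.4 to 20.3 FPKM (Flox), and the TGF-beta co-receptor Eng (endoglin) over 22.3 to 31.1 FPKM (CKO) and 21.9 to 36.5 FPKM (Flox). Fold changes were 0.12 (SE 0.11) for Emcn and -0.013 (SE 0.13) for Eng, on the log2 scale. The tight-junction-associated Esam ranged over 11.3 to 14.6 FPKM (CKO) and 10.3 to 14.1 FPKM (Flox), Icam2, a constitutive ligand of leukocyte integrins, over 3.91 to 7.05 FPKM (CKO) and 5.18 to 7.12 FPKM (Flox), and the secreted vessel factor Egfl7 over 22.9 to 32.9 FPKM (CKO) and 26.3 to 34.9 FPKM (Flox). All 3 overlapped between the groups, with log2 fold changes of 0.061 (SE 0.093), -0.17 (SE 0.13) and -0.068 (SE 0.10).

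Robo4, a receptor that stabilises vessels, was at 3.57, 4.14, 3.9, 3.02 and 4.2 FPKM in CKO and at 2.67, 2.73, 2.69, 3.29 and 3.89 FPKM in Flox. For Robo4, 3 of the 5 CKO libraries exceeded every Flox library (log2 fold change 0.24 (SE 0.10), adjusted p = 0.306). Nos3, the endothelial nitric oxide synthase, ranged over 3.1 to 4.42 FPKM (CKO) and 3.28 to 5.04 FPKM (Flox), a log2 fold change of -0.034 (SE 0.11). Vwf, which anchors platelets and forms Weibel-Palade bodies, was at 7.91, 7.37, 6.29, 6.98 and 9.7 FPKM in CKO and at 5.87, 5.89, 6.28, 6.29 and 12.1 FPKM in Flox. Flox replicate 5 was the highest of all 10 libraries for Vwf, and the groups overlapped (log2 fold change 0.099 (SE 0.18)).

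The 3 endothelial transcription factors had negative log2 fold changes, of which that of Erg turned positive in 4 of the 16 alternatives, and none passed. Sox18, which specifies arterial and lymphatic fates, was at 7.26, 10.4, 11.4, 11.1 and 14.04 FPKM in CKO and at 10.1, 13.5, 12.4, 13.8 and 15.8 FPKM in Flox. CKO replicate 1 was the lowest of all 10 libraries and Flox replicate 5 the highest (log2 fold change -0.26 (SE 0.15), adjusted p = 0.452, and -0.14 without CKO replicate 1, with adjusted p of 0.196 to 0.688 over the alternatives). Sox17, of arterial endothelium, ranged over 1.38 to 1.81 FPKM (CKO) and 1.21 to 1.84 FPKM (Flox), a log2 fold change of -0.065 (SE 0.081). The ETS factor Erg was the least variable of the 34 genes, within 11.3 to 15.1 FPKM (CKO) and 12.7 to 14.9 FPKM (Flox), with a coefficient of variation of 8.76% over the 10 libraries and a log2 fold change of -0.0052 (SE 0.078).

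Among lymphatic genes the directions were mixed. Prox1, the factor that maintains lymphatic identity, was near the detection filter, at 0.740, 1.04, 0.950, 0.940 and 0.790 FPKM in CKO and at 0.900, 1.11, 1.16, 1.27 and 1.42 FPKM in Flox. It reached 1 FPKM in 4 Flox libraries and 1 CKO library, so it entered the test mainly through the Flox group. The log2 fold change was -0.20 (SE 0.078), adjusted p = 0.275. Mmrn1, a multimerin of lymphatic endothelium and platelets, was at 15.95, 13.9, 9.75, 11.1 and 11.8 FPKM in CKO and at 10.1, 10.2, 10.2, 9.67 and 12.3 FPKM in Flox. CKO replicates 1 and 2 exceeded every Flox library (log2 fold change 0.22 (SE 0.12), adjusted p = 0.403). Pdpn (podoplanin), which keratinocytes and fibroblasts of inflamed skin also make, ranged over 52.8 to 81.2 FPKM (CKO) and 62.3 to 76.5 FPKM (Flox), a log2 fold change of -0.085 (SE 0.11).

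The inducible adhesion molecules, on which leukocytes roll and arrest, overlapped between the groups. Sele (E-selectin), the cytokine-induced selectin of skin venules, was at 7.56, 12.2, 11.7, 10.4 and 13.9 FPKM in CKO replicates 1 to 5 and at 9.56, 9.78, 9.76, 12.2 and 13.1 FPKM in Flox replicates 1 to 5. CKO replicate 1 was the lowest and CKO replicate 5 the highest of all 10 libraries, so the CKO range contained the Flox range (log2 fold change 0.021 (SE 0.14), 95% interval -0.30 to 0.34). Selp (P-selectin), stored in Weibel-Palade bodies and platelet granules, was at 10.6, 20.5, 14.3, 10.7 and 13.7 FPKM in CKO and at 12.7, 7.81, 10.7, 15.5 and 15.5 FPKM in Flox. The highest library was CKO replicate 2 and the lowest Flox replicate 2 (log2 fold change 0.16 (SE 0.21)).

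Icam1, the ligand of the integrins LFA-1 and Mac-1, was at 24.7, 36.4, 33.99, 30.9 and 26.9 FPKM in CKO and at 26.8, 25.2, 28.3, 31.6 and 29.5 FPKM in Flox. Vcam1, the ligand of the integrin VLA-4, was at 70.2, 136, 97.3, 66.7 and 96.4 FPKM in CKO and at 73.5, 59.1, 85.2, 97.1 and 61.7 FPKM in Flox. CKO replicate 2 was the highest library for both. Their log2 fold changes were 0.099 (SE 0.10) and 0.28 (SE 0.20), with adjusted p values of 0.711 and 0.547. All 4 adhesion genes had a positive log2 fold change, and that of Sele turned negative in 5 of the 16 alternatives. Without CKO replicate 2 the values were 0.016 for Selp, 0.034 for Icam1 and 0.14 for Vcam1. The median of the 4 genes was 0.13, and it was 0.025 without CKO replicate 2, 0.037 without Flox replicate 2 and 0.20 without CKO replicate 1. CKO replicate 1, low in Ptprc, was also the lowest CKO library for Sele, Selp and Icam1, while Vcam1 was lowest in CKO replicate 4. Csf1r, another leukocyte marker, was at 124 FPKM in CKO replicate 1 against 118 to 126 FPKM in the other CKO libraries. Whether the leukocyte content had a part in the low adhesion values of CKO replicate 1 was not tested.

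**Figure D3:**
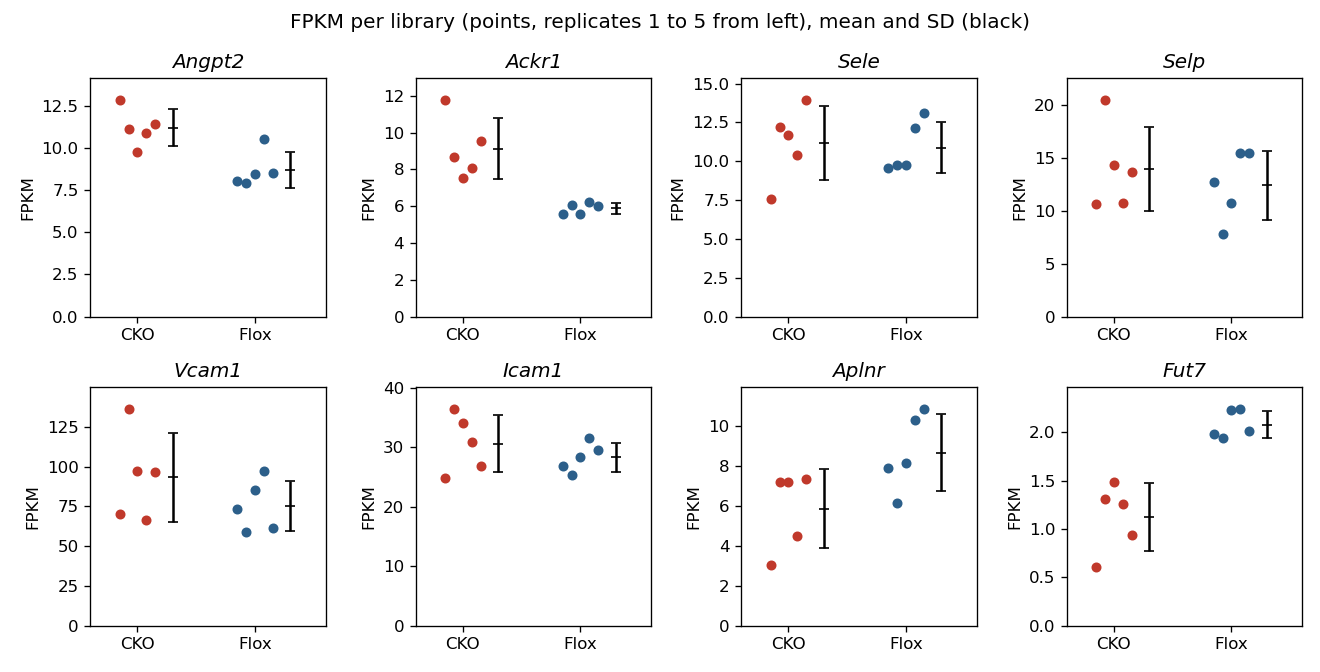
FPKM per library for 8 genes in CKO (red) and Flox (blue), with replicates 1 to 5 from left to right in each group and the mean ± SD beside them in black. The groups overlap for Angpt2, Sele, Selp, Vcam1, Icam1 and Aplnr, and do not overlap for Ackr1 and Fut7, which belong to the wider lists.

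Libraries of a group differed in the vascular genes together. Flox replicate 5 was the highest Flox library for 21 of the 34 genes and Flox replicate 4 for 12. CKO replicate 5 was the highest CKO library for 18 genes, and CKO replicate 1 was the lowest for 15. The median deviation of the 34 genes from their group mean was 0.21 in Flox replicate 5 and 0.16 in CKO replicate 5 on the log2 scale, and -0.14 in Flox replicate 2 and -0.12 in CKO replicate 1. Over all genes tested the same medians lay between -0.014 and 0.026 in the 10 libraries. The genes share their libraries, so these counts describe the libraries and are not independent observations.

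**Figure D4:**
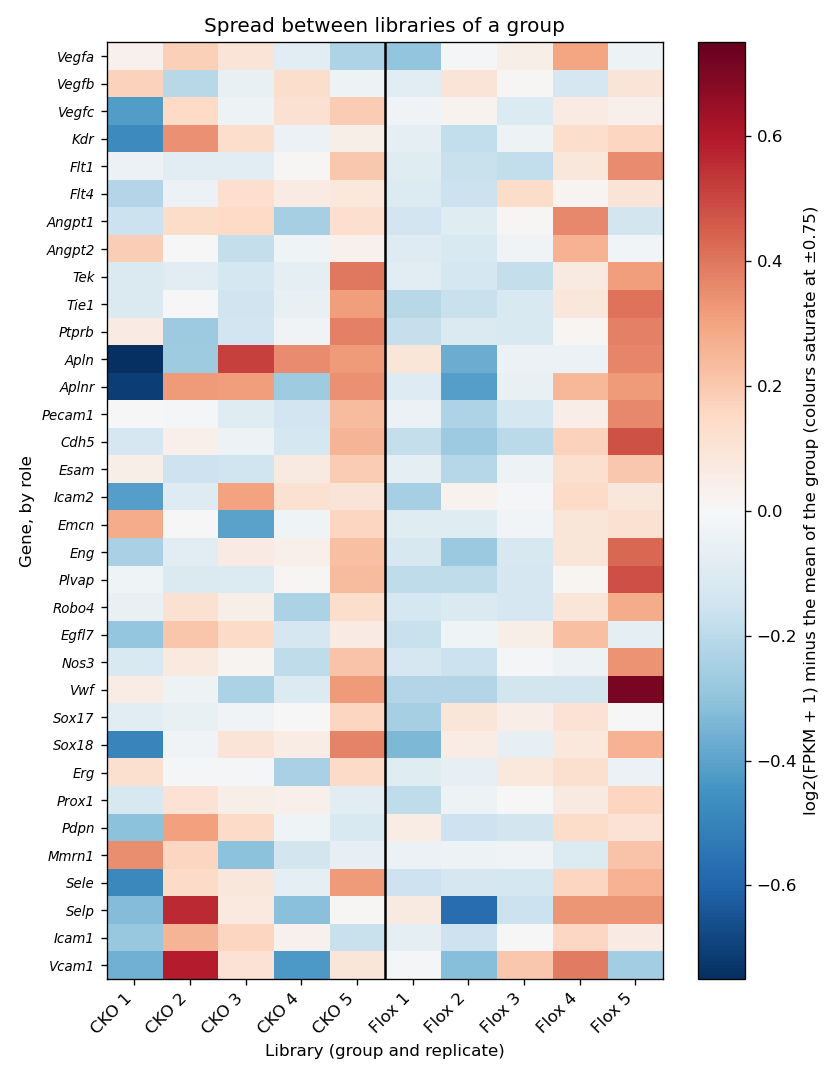
Deviation of log2(FPKM + 1) from the mean of its group for the 34 genes (rows, by role) in 10 libraries (columns). Flox replicate 5 and CKO replicate 5 are red in most endothelial rows, with medians of 0.21 and 0.16, while CKO replicate 1 is blue in Apln, Aplnr, Kdr, Sox18 and Sele.

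The endothelial level of a library was taken as the mean log2(FPKM + 1) of Pecam1, Cdh5, Tie1, Esam, Icam2 and Egfl7. It was 4.20 ± 0.124 (SD, n = 5) in CKO (4.05 to 4.39) and 4.24 ± 0.179 in Flox (4.08 to 4.48), so the groups overlapped. Set against it, 2 of the other 28 genes were higher in every CKO library than in any Flox library, against 0.819% of all genes tested, and none was lower in every one, against 0.614%. The vascular genes varied together between libraries of a group, and subtracting the endothelial level can take out part of that variation. The share over all genes is therefore not a like baseline for them. Without the subtraction it was 1.24% with CKO above Flox and 3.00% below. The 2 genes, Angpt2 and Robo4, were named after their values were seen. Angpt2 relative to the endothelial level was -0.77 to -0.26 in CKO and -1.23 to -0.84 in Flox, as a difference of log2 values. Robo4 was -2.15 to -1.83 in CKO and -2.28 to -2.19 in Flox on the same scale. Aplnr, with -2.04 to -1.16 in CKO and -1.25 to -0.87 in Flox, still overlapped. Outside the 34, only Ackr1, Lyve1, Heyl and Rgs5 are shown on that scale, each the gene of lowest p in its wider list. They were picked by p in these same data, so whether their groups overlap is descriptive only. Genes of the other wider lists are not shown on it. Ackr1 with -1.11 to -0.38 in CKO and -1.67 to -1.27 in Flox did not overlap. Nor did the pericyte gene Rgs5, with 1.54 to 2.05 in CKO and 2.11 to 2.42 in Flox. Lyve1 with 0.82 to 2.07 in CKO and 0.35 to 1.18 in Flox overlapped. So did Heyl, with -2.90 to -2.48 in CKO and -2.54 to -2.33 in Flox.

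In a wider set of 23 endothelial genes none passed, against 0.106% of all genes tested. At an unadjusted p under 0.05 in limma 3 were higher and 4 lower, which is 30.4% of the 23 against 15.1% of all genes tested. For 3 of the 23 the CKO and Flox libraries lay apart without overlap, against 4.23%. This list and the other wider lists below were chosen with earlier results of these data known, so their shares are descriptive only. The log2 fold change was positive for 12 and negative for 11, and its median of 0.013 turned negative on rescaling to equal totals and in 8 of the 10 fits that left out 1 library. The members of lowest p were Ackr1, Tal1 and Ets2. Ackr1, the atypical chemokine receptor of venular endothelium, was at 11.8, 8.67, 7.52, 8.07 and 9.56 FPKM in CKO replicates 1 to 5 and at 5.56, 6.04, 5.55, 6.23 and 6 FPKM in Flox replicates 1 to 5. All 5 CKO libraries exceeded all 5 Flox libraries. The log2 fold change was 0.54 (SE 0.098) at an adjusted p of 0.0651. It passed when libraries were weighted by quality, and also when CKO replicate 1 was left out, where the log2 fold change was 0.46 and the adjusted p 0.0440, and its adjusted p was 0.0255 to 0.181 over all alternatives.

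Tal1, a basic helix-loop-helix factor of blood and endothelial lineages that mast cells also use, was at 2.11, 2.42, 3.01, 2.69 and 2.78 FPKM in CKO and at 3.72, 3.75, 4.36, 3.53 and 3.31 FPKM in Flox. The groups did not overlap (log2 fold change -0.40 (SE 0.082), adjusted p = 0.0833, passing with array quality weights). Basophil markers were lower in the same libraries, and their part in this difference was not tested. Ets2, an ETS factor that many cell types express, was at 51.2, 56.9, 49.7, 42.96 and 45.5 FPKM in CKO and at 37.99, 30.9, 31.4, 42.8 and 36.9 FPKM in Flox. Here too all CKO libraries exceeded the Flox libraries (log2 fold change 0.45 (SE 0.10), adjusted p = 0.115).

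Leukocyte partners of the adhesion molecules, 12 integrins, selectin ligands and the enzymes that decorate them, had 10 negative and 2 positive values of the log2 fold change. Their median was -0.100, and none passed. Positive values were 2 of 12, against 39.5% of all genes tested. Without CKO replicate 1 the signs were 6 and 6, and the median was -0.00089. Over the other fits that left out 1 library the median ran from -0.18 (CKO replicate 3) to -0.053 (Flox replicate 5). Fut7, the fucosyltransferase that builds selectin ligands on leukocytes, was at 0.610, 1.31, 1.49, 1.26 and 0.940 FPKM in CKO and at 1.98, 1.94, 2.23, 2.24 and 2.01 FPKM in Flox. The groups did not overlap (log2 fold change -0.55 (SE 0.11), adjusted p = 0.0829, passing with array quality weights). The beta7 integrin Itgb7 ranged over 10.4 to 19.98 FPKM (CKO) and 18.1 to 22.2 FPKM (Flox), a log2 fold change of -0.37 (SE 0.14), and the sialomucin Podxl, which endothelium also expresses, over 5.06 to 9.52 FPKM (CKO) and 7.25 to 11.6 FPKM (Flox), a log2 fold change of -0.32 (SE 0.15). Without CKO replicate 1 the log2 fold change was -0.24 for Itgb7 and -0.23 for Podxl. The basophil markers were lower in the same CKO libraries (a sum of 72.9 to 123 FPKM against 247 to 302 FPKM), and their part was not tested.

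Of 13 tested genes of Notch and BMP9-ALK1 signalling, 1 was on the positive side, against 39.5% of all genes tested, and 12 on the negative side, and none passed. The number on the negative side was 11 with quantile normalization, 10 with array quality weights and 9 without Flox replicate 5. The median log2 fold change was -0.081, and -0.043 without Flox replicate 5. Heyl, a Notch target of mural and endothelial cells, was at 1.53, 2.28, 1.47, 1.74 and 1.88 FPKM in CKO and at 2.31, 2.38, 2.28, 2.85 and 2.85 FPKM in Flox. CKO replicate 2 and Flox replicate 3 tied at the only point where the groups met (log2 fold change -0.35 (SE 0.089), adjusted p = 0.138). Hey1, another Notch target, ranged over 1.83 to 2.33 FPKM (CKO) and 2.41 to 2.89 FPKM (Flox) with every CKO library below every Flox library (log2 fold change -0.19 (SE 0.063), adjusted p = 0.219). Smad7, the inhibitory SMAD, had -0.11 (SE 0.065) on the same scale, and -0.060 without CKO replicate 1.

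Of 11 pericyte and smooth muscle genes, 1 was on the positive side, against 39.5% of all genes tested, and 10 on the negative side (7 with array quality weights), and none passed. Their median log2 fold change was -0.12. Leaving out 1 library moved it to -0.047 (Flox replicate 5), -0.074 (CKO replicate 1), -0.18 (CKO replicate 5) or -0.19 (CKO replicate 4). Rgs5, a regulator of G protein signalling in pericytes, was at 47.4, 52.1, 68.03, 68.5 and 86.1 FPKM in CKO and at 82.8, 90.1, 76.9, 98.4 and 95.3 FPKM in Flox. CKO replicate 5 alone lay inside the Flox range, and the log2 fold change was -0.48 (SE 0.15), adjusted p = 0.192. The proteoglycan Cspg4 (NG2) and the PDGF receptor Pdgfrb of the same cells overlapped between the groups, with -0.20 (SE 0.11) and -0.24 (SE 0.15) on the log2 scale. Without Flox replicate 5 these were -0.11 and -0.14, and without CKO replicate 1 they were -0.15 and -0.13.

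Other lymphatic genes had a median of -0.026 over 9 tested genes, which turned positive with quantile normalization and without CKO replicate 1 or Flox replicate 5, and none passed. Lyve1, the hyaluronan receptor of lymphatic endothelium and of some macrophages, was at 68.7, 49.6, 31.5, 37.9 and 38.2 FPKM in CKO and at 30.9, 22.4, 39.7, 25.4 and 29.7 FPKM in Flox. CKO replicate 1 was the highest of all libraries, and the log2 fold change of 0.57 (SE 0.21) was 0.40 without it (adjusted p = 0.250 with all libraries). On the log2 scale the extracellular matrix gene Reln stood at 0.23 (SE 0.12) and the connexin gene Gja4 at -0.23 (SE 0.12), and Gja4 at -0.12 without CKO replicate 1. Among 11 VEGF co-receptors, other ligands and semaphorins, none passed and the median was -0.051, which ran from -0.12 without CKO replicate 5 to -0.013 without Flox replicate 5, with the lowest p for Sema3a, a ligand of NRP1, which ranged over 5.41 to 7.15 FPKM (CKO) and 4.54 to 5.82 FPKM (Flox), a log2 fold change of 0.20 (SE 0.080). The next were the signalling adaptor Shb at 0.12 (SE 0.072) and Sema3f at 0.12 (SE 0.072) on the log2 scale, and Sema3f was at 0.067 without CKO replicate 1.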

How the data were processed

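The labels' protocols describe oligo-dT selection of RNA from the 10 skin samples, random hexamer priming and DNA nanoball sequencing. The deposited values are FPKM, 1 per gene and sample, per the file headers, and the submitters' processing notes name HISAT as aligner. Its version, the counting tool, the strand setting, the genome build and the annotation do not appear in the sources used here. Depth is unknown, so counting error cannot be stated. In GENCODE M21, exons of 9 members overlap those of a gene on the opposite strand (Angpt1, Egfl7, Eng, Icam1, Nos3, Prox1, Selp, Sox17 and Vcam1), so their values may hold reads of a neighbour.

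Groups follow the sample titles. limma-trend (limma 3.58.1, R 4.3.3) was run on log2(FPKM + 1), keeping 13186 genes that reached 1 FPKM in 5 or more libraries, two-sided, with Benjamini-Hochberg adjustment over all of them and a threshold of 0.05. The script was tested on simulated data. Alternatives were a pseudocount of 0.1, no filter, quantile normalization, rescaling to equal totals, array quality weights, the replicate number as a block, and each library left out in turn. All 34 members are accounted for, and of each wider list up to 3 genes of lowest p are named, with any that passed. The members and lists were chosen with earlier results of these data known.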

Additional observations from a re-analysis of the deposited data

Results flagged for a closer look

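In 8 of 68 sets of 5 libraries (34 genes in each group), 1 library lay farther from the rest than Dixon's 95% critical value of 0.71 allows, and chance alone flags about 1 set in 20. Genes share their libraries, so these are not independent. Flox replicate 5 was the high library for Plvap at 114 FPKM (71.4 to 82.5 in the other Flox libraries), Vwf at 12.1 FPKM (5.87 to 6.29), Nos3 at 5.04 FPKM (3.28 to 3.75) and Mmrn1 at 12.3 FPKM (9.67 to 10.2). Flox replicate 4 was the high library for the 2 angiopoietins, Angpt1 at 5.75 FPKM (3.76 to 4.27) and Angpt2 at 10.6 FPKM (7.92 to 8.52). CKO replicate 5 was the high library for Tek at 5.74 FPKM (3.68 to 3.88) and Tie1 at 18.3 FPKM (13.0 to 14.5).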

How the results depend on the processing

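Under all 16 alternatives 0 of the 34 genes rose and 0 fell, and the lowest adjusted p of any of them was 0.0907 (Angpt2 without Flox replicate 4, limma). Their median log2 fold change was 0.010 and ran from -0.049 without CKO replicate 5 to 0.090 without Flox replicate 5, -0.0069 after rescaling to equal totals and 0.089 with array quality weights, so it has no stable sign. Of the 34 genes, 22 kept the sign of their log2 fold change in every alternative that could be run. The other 12 changed it in at least 1. With quantile normalization Flt1 turned to 0.012, Nos3 to 0.013 and Erg to 0.020. With array quality weights Flt1 turned to 0.050, Tie1 to 0.071, Apln to 0.047, Eng to 0.10, Plvap to 0.085 and Nos3 to 0.010. With 1 library left out the values ran over -0.18 to 0.023 (Kdr), -0.076 to 0.062 (Flt1), -0.17 to 0.0067 (Tek), -0.090 to 0.090 (Tie1), -0.30 to 0.058 (Apln), -0.017 to 0.17 (Cdh5), -0.083 to 0.095 (Eng), -0.061 to 0.12 (Plvap), -0.12 to 0.0050 (Egfl7), -0.088 to 0.049 (Nos3), -0.041 to 0.056 (Erg) and -0.059 to 0.14 (Sele). The causes were not tested. Prox1 fell under the filter in 5 of the leave-one-out fits. With the replicate number as a block the counts stayed at 0 and the median at 0.010. The numbers share no stated animal or day. Same-numbered libraries correlated at -0.21 to 0.212 in their deviations over all genes tested, where only CKO replicate 5 correlated best with its own number. Of the 34 genes, 18 were highest in replicate 5 among CKO libraries and 21 in replicate 5 among Flox libraries. With so few libraries these values cannot exclude a pairing. Over all genes tested the block called 0 where the unblocked fit called 6 higher and 8 lower, array quality weights called 30 and 60, and leaving out 1 library called 0 to 11 and 0 to 15. FPKM carry no depth, so no counting error is known, and low genes such as Prox1 and Sox17 have fold changes that the pseudocount shrinks.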

Other observations

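Hypoxia targets, which share the factor HIF with Vegfa, had a positive log2 fold change in 9 of 10 cases, against 39.5% of all genes tested, and none passed. The median was 0.094, and it was 0.18 without CKO replicate 3, 0.17 without CKO replicate 2 and 0.16 without Flox replicate 2. It was 0.076 without CKO replicate 1, where 8 of the 10 were positive, and 0.077 without Flox replicate 5. Slc2a1, the glucose transporter GLUT1, was at 63.1, 43.7, 47.99, 56.4 and 45 FPKM in CKO and at 36.04, 39.8, 37.3, 41.9 and 40.3 FPKM in Flox. All CKO libraries exceeded the Flox libraries (log2 fold change 0.37 (SE 0.098), limma adjusted p = 0.147, and 0.29 without CKO replicate 1). The log2 fold change was 0.24 (SE 0.088) for Ndrg1 and 0.40 (SE 0.18) for the mitophagy receptor Bnip3, and 0.15 and 0.22 without CKO replicate 1. Bnip3 was highest in CKO replicate 1, at 92.7 FPKM against 42.5 to 56.95 FPKM in the other CKO libraries, and the skeletal muscle markers were highest there too. All 9 tested muscle markers were higher in CKO at an unadjusted p under 0.05 in limma, against 4.78% of all genes tested. None passed, and their median log2 fold change was 1.01 (0.62 without CKO replicate 1). These markers share their libraries, so they are not independent observations. Their part in the hypoxia values was not tested.

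Of 11 platelet markers, 6 were under 1 FPKM in every library, among them Gp9, Gp6 and Treml1, which were at 0 in at least 1 library each. Pf4, which macrophages of skin also make, ran over 170.0 to 262 FPKM in CKO and over 183 to 254 FPKM in Flox. Itga2b fell, from 14.2 ± 1.44 FPKM in Flox to 6.68 ± 1.69 FPKM in CKO (limma adjusted p = 0.0463), and cells of the basophil and mast cell lineage also express it. It did not pass without CKO replicate 2, 3 or 4 or any 1 Flox library, nor with no filter or with the replicate block. The basophil markers were lower in the same libraries, and their part in this was not tested. Red cell transcripts summed to 637 to 1563 FPKM in CKO and 654 to 1995 FPKM in Flox. None of these 5 genes passed. Their median log2 fold change of 0.035 had no stable sign, at -0.13 without CKO replicate 1, -0.12 without Flox replicate 3 and 0.31 without Flox replicate 4.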
